A study of Rattus norvegicus with 36 samples.

Results

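Chemokines are small secreted proteins that draw immune cells along a gradient, and the genes described here are 6 soluble chemokines (Cxcl14, Cxcl10, Cxcl13, Ccl2, Ccl20 and Ccl21), the membrane-bound chemokine fractalkine (Cx3cl1) and its receptor Cx3cr1, measured in rat dorsal root ganglia after ligation of the L5 spinal nerve. All probe sets annotated with one of these symbols and no other gene were taken, which gave 16 probe sets for 8 of the 10969 genes named on the arrays. The genes were chosen with their measured differences between the pools in view, so the values of L5 against sham and of L5 against L4 below are a description, with no p-value. That also holds for the day differences of Cxcl14, which was chosen because its probe sets disagree between days.

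Dorsal root ganglia hold the cell bodies of sensory neurons with their satellite glia, Schwann cells, macrophages and vessels. Ganglia were pooled 28 or 50 days after the operation in 3 conditions. The L5 pools came from animals with an L5 spinal nerve ligation, which models neuropathic pain, and the L4 pools held the adjacent ganglion of such animals, whose nerve was left intact. The sham pools combined L4 and L5 ganglia after sham surgery. The labels that state a pool size give 30 rats. Strain, sex and age were not given in the sources used here. Total RNA of each of the 6 pools was hybridised to 2 arrays of each of 3 Affymetrix rat chip types (A, B and C), in all 36 arrays. The titles of the L4 and L5 arrays call them technical replicates, and those of the sham arrays say only replicate. Both arrays of a condition and day were taken to share 1 pool, so their spread was read as technical. Pooling hides the spread between rats, so p-values measure only the spread between pools. A sham pool mixes both ganglia, so normal differences between L4 and L5 ganglia are part of every comparison.

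In injured ganglia, neurons, glia and resident macrophages can release chemokines. CXC chemokines such as Cxcl10 and Cxcl13 mainly act on lymphocytes, Ccl2 acts on monocytes through Ccr2, Ccl20 acts through Ccr6 and Ccl21 through Ccr7. Fractalkine is held on neuronal membranes until proteases such as cathepsin S (Ctss) shed it, and Cx3cr1 is carried by macrophages and microglia. Cxcl14 is a constitutively made chemokine of skin and other epithelia, and its receptor is debated.

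The stretches before the annotated start sites are shown for the 3 CXC chemokines, the family of Cxcl14. RefSeq windows (rat build GRCr8, 250 bases before and 50 after the start) were found for 7 of the 8 genes, all but Ccl2. The 250 upstream bases are printed 5′ to 3′, and capitals mark matches, on either strand of the whole window, to the TATA motif (TATAAA), the AP-1 motif (TGANTCA), the CRE motif (TGACGTCA) and the NF-kB site.
Cxcl14, chr17:8322900-8323149 (+ strand): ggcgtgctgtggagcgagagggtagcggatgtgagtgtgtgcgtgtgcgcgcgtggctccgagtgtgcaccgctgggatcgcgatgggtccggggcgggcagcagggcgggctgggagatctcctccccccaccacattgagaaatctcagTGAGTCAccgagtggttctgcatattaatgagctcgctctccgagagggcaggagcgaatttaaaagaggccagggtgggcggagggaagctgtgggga
Cxcl10, chr14:15988816-15989065 (+ strand): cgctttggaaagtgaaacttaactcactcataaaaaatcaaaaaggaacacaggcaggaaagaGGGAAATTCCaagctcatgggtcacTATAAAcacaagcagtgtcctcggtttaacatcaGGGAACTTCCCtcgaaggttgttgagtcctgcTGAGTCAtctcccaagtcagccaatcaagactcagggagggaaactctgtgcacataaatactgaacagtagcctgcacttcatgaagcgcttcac
Cxcl13, chr14:13917921-13918170 (- strand): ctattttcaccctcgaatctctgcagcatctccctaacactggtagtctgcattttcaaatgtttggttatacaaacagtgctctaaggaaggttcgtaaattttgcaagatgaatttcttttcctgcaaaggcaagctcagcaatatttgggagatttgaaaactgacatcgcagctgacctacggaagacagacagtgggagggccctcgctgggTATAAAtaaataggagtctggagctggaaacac
Cxcl14 held 1 match, an AP-1 motif that begins at position -99 from the start. Cxcl10 held an AP-1 motif at -96, a TATA motif at -162 and matches to the NF-kB site at -187 and at -128, the latter overlapping a further match at -127 on the other strand. Cxcl13 held a TATA motif at -33. In the windows not printed, Ccl20 held an NF-kB site at -89 and fractalkine a TATA motif at -78, and no match was found in those of Ccl21 and Cx3cr1. Of 33469 rat promoter windows of the same length, 14.2% held the TATA motif, 7.33% the AP-1 motif, 1.83% the CRE motif and 7.51% an NF-kB site. A match describes letters and not binding.

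All values are MAS5 signals, on a linear scale on which every array had the same trimmed mean. Differences are of log2(signal + pseudocount), with a pseudocount of 12.8 on chip A, 17.7 on B and 20.2 on C. They understate the change of dim probe sets. The standard error (SE) is that of a limma fit in which the pools of both days serve as the 2 replicates of each condition, leaving 2 residual degrees of freedom. With 1 pool per condition and day, these hold any change of the condition differences between days along with array noise. A difference that changes between days therefore widens the SE. Of the 16 probe sets, 12 passed the filter on low signal, at least 1 for each of the 8 genes. Just inside it lay Ccl20 at a mean signal of 40.4 (filter 39.3 on chip A), and just outside lay a Cxcl14 probe set at 49.8 (filter 53.6 on chip B).

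Cxcl14 had the largest differences between L5 and sham among these genes. Of its 3 tested probe sets, 3 were above sham in L5 at both days, by 0.85 to 2.45 on the log2 scale at a single day and by 0.97 to 1.93 in the fit over both days, while its 1 dim probe set was lower. Its probe sets gave different accounts of time: one fell steeply from 28 to 50 days in every condition, another stayed level, and they gave different accounts of the L4 ganglion too.

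Probe set rc_AA874803_g_at, on chip A, spanned the widest range. At 28 days its arrays read 76.4 and 91.6 in sham, 70.2 and 45.0 in L4, and 502 and 529.6 in L5. Readings at 50 days were 5.1 and 11.2 in sham, 6.0 and 7.8 in L4, and 31.4 and 55.6 in L5. Both L5 arrays stood above all sham and L4 arrays of the same day, but the L5 pool at 50 days lay below the sham pool at 28 days. L5 exceeded sham by 1.93 ± 0.41 (SE, n = 2 pools), with 2.45 at 28 days and 1.41 at 50 days, or 5.47-fold and 2.65-fold on that scale. Against L4 the difference was 2.21 ± 0.41. From 28 to 50 days it was lower by 2.43 ± 0.33 (-2.43), with differences of -2.22 in sham, -1.82 in L4 and -3.26 in L5. Both sham and L4 arrays at 50 days lay below the pseudocount, where the order of signals carries little.

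Its sister rc_AA874803_at, named for the same sequence, moved the same way in a narrower range. It read 75.2 and 73.4 in sham, 57.0 and 68.2 in L4, and 118 and 175 in L5 at 28 days. The 50 day arrays gave 28.5 and 40.7 in sham, 30.5 and 61.5 in L4, and 80.3 and 94.5 in L5. L5 lay above sham and L4 on both arrays at both days, by 0.85 and 1.09 against sham. The fitted difference was 0.97 ± 0.31. At 50 days this probe set was lower than at 28 days, with a difference of -0.65 ± 0.26. Over the 6 pools the sister probe sets had a Pearson r of 0.94 on the log2 scale.

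Probe set rc_AI043862_at, on chip B, followed condition and not day. At 28 days the arrays read 20.1 and 57.8 in sham, 94.8 and 87.8 in L4, and 180.4 and 123 in L5. At 50 days they read 24.9 and 63.2, 85.0 and 88.7, and 209.7 and 146 in the same order. Neither sham array reached an L4 array, and neither L4 array reached an L5 array, at either day, which makes this the probe set with the steps sham, L4, L5. L5 exceeded sham by 1.68 ± 0.23, 1.64 at 28 days and 1.72 at 50 days. L4 exceeded sham by 0.93 ± 0.23 and did not pass (limma, adjusted p = 1.00 over all probe sets, higher at both days). The step from L4 to L5 was 0.75 ± 0.23, but only 0.04 when arrays were scaled on the hybridisation controls, where the median of all probe sets in L5 against L4 was -0.64. The day difference was 0.10 ± 0.19.

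The size of the L5 difference of this probe set rested on sham pools whose arrays disagreed, the first array reading less than the second at both days. From the first arrays alone it was 2.40 and from the second alone 0.95. The fit counts this probe set among its calls, a description only, since Cxcl14 was chosen with this difference in view. The call was absent from either array alone, and without the 28 day sham pool (difference 1.65) or the 50 day one (1.71). One of these sham arrays also carries labels that disagree on the day (title 28, description 50 days). It was grouped by title, correlated best with the other 28 day sham array (r = 0.952, against 0.932 and 0.928 with the 50 day sham arrays), and without it the difference was 1.43.

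The dim probe set rc_AI011401_at, also on chip B, went the other way and was not tested. Its sham arrays ran from 39.6 to 71.3 and its L4 arrays from 45.2 to 71.6. L5 arrays read 13.1 and 55.7 at 28 days and 61.0 and 10.4 at 50 days, so arrays of 1 pool differed more than the pools. The L5 pool was below sham by 0.41 at 28 days (-0.41) and by 0.79 at 50 days (-0.79), and in neither case were the arrays apart. Its r over the 6 pools was -0.91 with rc_AA874803_at, and that of rc_AI043862_at with rc_AA874803_g_at was 0.40. Why the probe sets differ was not tested.

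**Figure D1:**
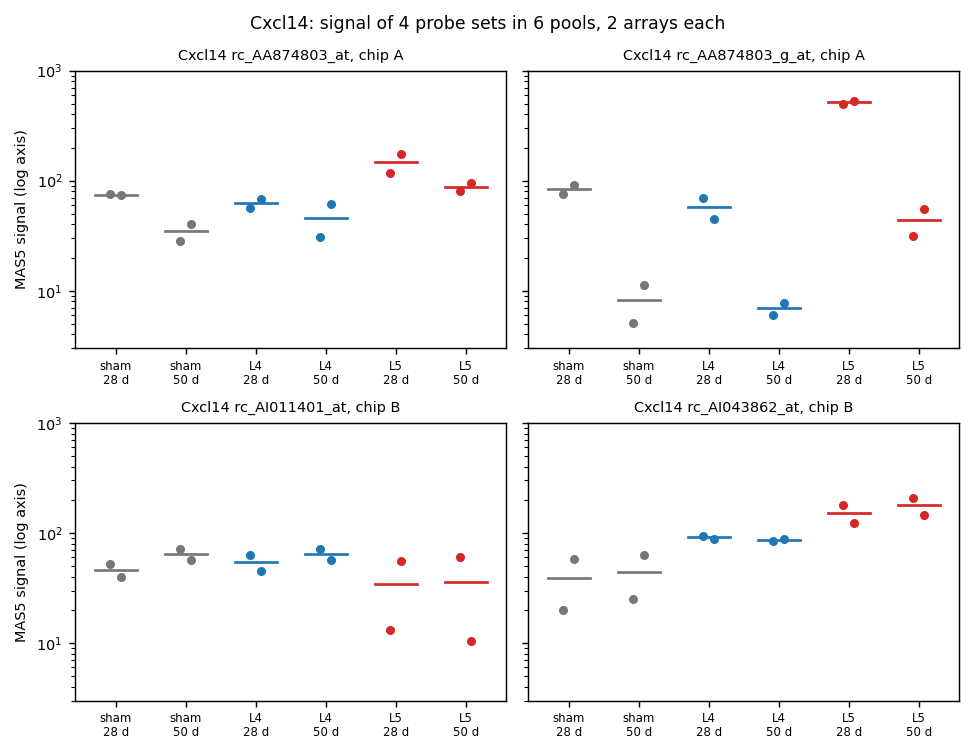
Signal of the 4 Cxcl14 probe sets (MAS5 signal on a log axis) in sham (grey), L4 (blue) and L5 (red) pools at 28 and 50 days; points are the 2 arrays of a pool and bars their mean. The top right panel runs from 5.1 to 529.6 and drops with day in every condition, while the bottom right panel steps up from sham to L4 to L5 at both days.

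Cxcl13, the attractant of B cells, and Cxcl10, which interferons induce and which acts on Cxcr3, also read higher in L5. Cxcl13 (rc_AA892854_at) read 49.3 and 54.1 in sham, 41.7 and 38.8 in L4, and 141.8 and 96.5 in L5 at 28 days. Its 50 day arrays gave 40 and 24.6 in sham, 3.8 and 27.9 in L4, and 73.8 and 57.7 in L5. L5 stood above both other conditions on both arrays at both days, by 1.01 and 0.81 over sham. The difference was 0.91 ± 0.38 against sham and 1.44 ± 0.38 against L4. L4 lay below sham by 0.53 ± 0.38 (limma, adjusted p = 1.00, lower at both days), and 50 days lay below 28 days by 0.77 ± 0.31 (limma, adjusted p = 0.22, lower in 3 of 3 conditions).

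Cxcl10 (U17035_s_at) read 51.6 and 53.7 in sham, 39.7 and 34.9 in L4, and 71.7 and 65.4 in L5 at 28 days. At 50 days the values were 20.9 and 37.0 in sham, 18.5 and 17.2 in L4, and 84.1 and 25.8 in L5. The 28 day L5 arrays were above sham and those of 50 days overlapped it, while L4 was below sham on both arrays at both days. L5 against sham was 0.45 ± 0.40, and L4 against sham was -0.40 ± 0.40 (limma, adjusted p = 1.00). From the second arrays alone the sign of the L5 difference turned, to -0.07. The day difference was -0.60 ± 0.32 (limma, adjusted p = 0.33).

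Among the CC chemokines, which form a separate family by their cysteines, no probe set was called in any comparison. Ccl2, the monocyte attractant, had probe sets that differed in their order of pools. Its probe set X17053mRNA_s_at read 539.5 and 458 in sham, 443 and 455 in L4, and 898 and 668 in L5 at 28 days. At 50 days it read 371 and 325 in sham, 505 and 443 in L4, and 383 and 435 in L5. The L5 arrays were the highest at 28 days, while at 50 days both L4 arrays were above both L5 arrays. L5 exceeded sham by 0.63 at 28 days and by 0.23 at 50 days, with a fitted 0.43 ± 0.23. L4 was below sham by 0.14 at 28 days (-0.14) and above it by 0.43 at 50 days. Its 50 day level was 0.44 ± 0.19 below that at 28 days (-0.44, limma, adjusted p = 0.24). By condition the day difference was -0.50 in sham, 0.07 in L4 and -0.90 in L5. Without either L4 pool the fall was 0.70, which then rests on sham and L5 and leaves out the condition that did not fall. The other Ccl2 probe set, X17053cds_s_at, ran over all 12 arrays only from 93.1 to 176. Its L4 difference from sham was 0.33 at 28 days, with arrays apart, and 0.10 at 50 days, and L5 against L4 was -0.11 at 28 days and 0.23 at 50 days, the reverse of the other probe set. Its L5 difference from sham was 0.28 ± 0.24, and the r between both Ccl2 probe sets was 0.51 over the 6 pools.

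Ccl20 (AF053312_s_at), the ligand of Ccr6, was close to the filter, with arrays from 21.0 to 64.2. The L5 arrays overlapped sham at 28 days and were above it at 50 days (61.9 and 64.2 against 38.8 and 59.3). L5 against sham was 0.23 ± 0.41. The 50 day pools were above the 28 day ones in 3 of 3 conditions, by 0.55 ± 0.33 (limma, adjusted p = 0.38).

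Ccl21, the ligand of Ccr7, had probe sets that did not move together (r = -0.35 over the 6 pools). The first, rc_AA998168_at, read 73.0 and 68.4 in sham and 17.6 and 79.2 in L5 at 28 days, and 84.2 and 57.3 in sham and 113.0 and 47.4 in L5 at 50 days. Its L4 arrays read 68.2 and 62.6 at 28 days and 67.0 and 44.2 at 50 days. L5 arrays lay on both sides of sham at both days, and the difference was -0.26 ± 0.29, the only tested one below 0. The second, rc_AI012482_f_at, read 31.3 and 157.5 on the arrays of the 28 day sham pool and 54.8 and 136 on those of the 50 day one, against 108 to 138 in L5. Its lowest pool was L4 at 28 days (99.2 and 45.3) and its highest L4 at 50 days (123.2 and 147.3). Its L5 difference from sham of 0.50 ± 0.25 was 1.23 from the first arrays alone and -0.23 from the second arrays alone.

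Fractalkine (AF030358_at), which neurons carry on their membranes, ran from 74.8 to 127 on all arrays but those of the 50 day L5 pool. At 28 days its arrays read 81.8 and 113 in sham, 104 and 80.3 in L4, and 74.8 and 94.8 in L5. At 50 days they read 83.2 and 127 in sham, 94.2 and 79.2 in L4, and 159 and 130.2 in L5. Only the 50 day L5 pool lay above its sham pool on both arrays, by 0.44, while at 28 days L5 was 0.17 below sham (-0.17) with overlapping arrays. The fitted L5 difference was 0.13 ± 0.29, and L4 against sham was -0.14 ± 0.29 (limma, adjusted p = 1.00). The other fractalkine probe sets, AF030358_g_at, rc_AA800602_s_at and rc_AI227647_s_at, had mean signals of 32.7, 25.3 and 14.4 and were left out of the test. At 28 days their L5 pools lay above sham by 0.42, 0.04 and 0.18, with arrays apart in AF030358_g_at and rc_AI227647_s_at. At 50 days they lay above it by 0.02, 0.26 and 0.25, with arrays apart only in rc_AA800602_s_at. Of these, rc_AA800602_s_at and rc_AI227647_s_at followed AF030358_at over the 6 pools (r = 0.87 and 0.86), and AF030358_g_at did not (r = -0.49).

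Cx3cr1 (U04808_at), the fractalkine receptor, was higher in L5 than in L4 on both arrays at both days. At 28 days it read 31.6 and 33.2 in sham, 13.3 and 38.2 in L4, and 49.8 and 91.4 in L5. Arrays of 50 days gave 60.2 and 63.5 in sham, 39.3 and 50.3 in L4, and 113.7 and 56.7 in L5. Arrays of L5 and sham were apart at 28 days and overlapped at 50 days. L5 exceeded sham by 0.58 ± 0.37, with 0.84 at 28 days and 0.33 at 50 days, and L4 by 0.93 ± 0.37. The level was higher at 50 than at 28 days in 3 of 3 conditions, by 0.53 ± 0.30 (limma, adjusted p = 0.35).

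**Figure D2:**
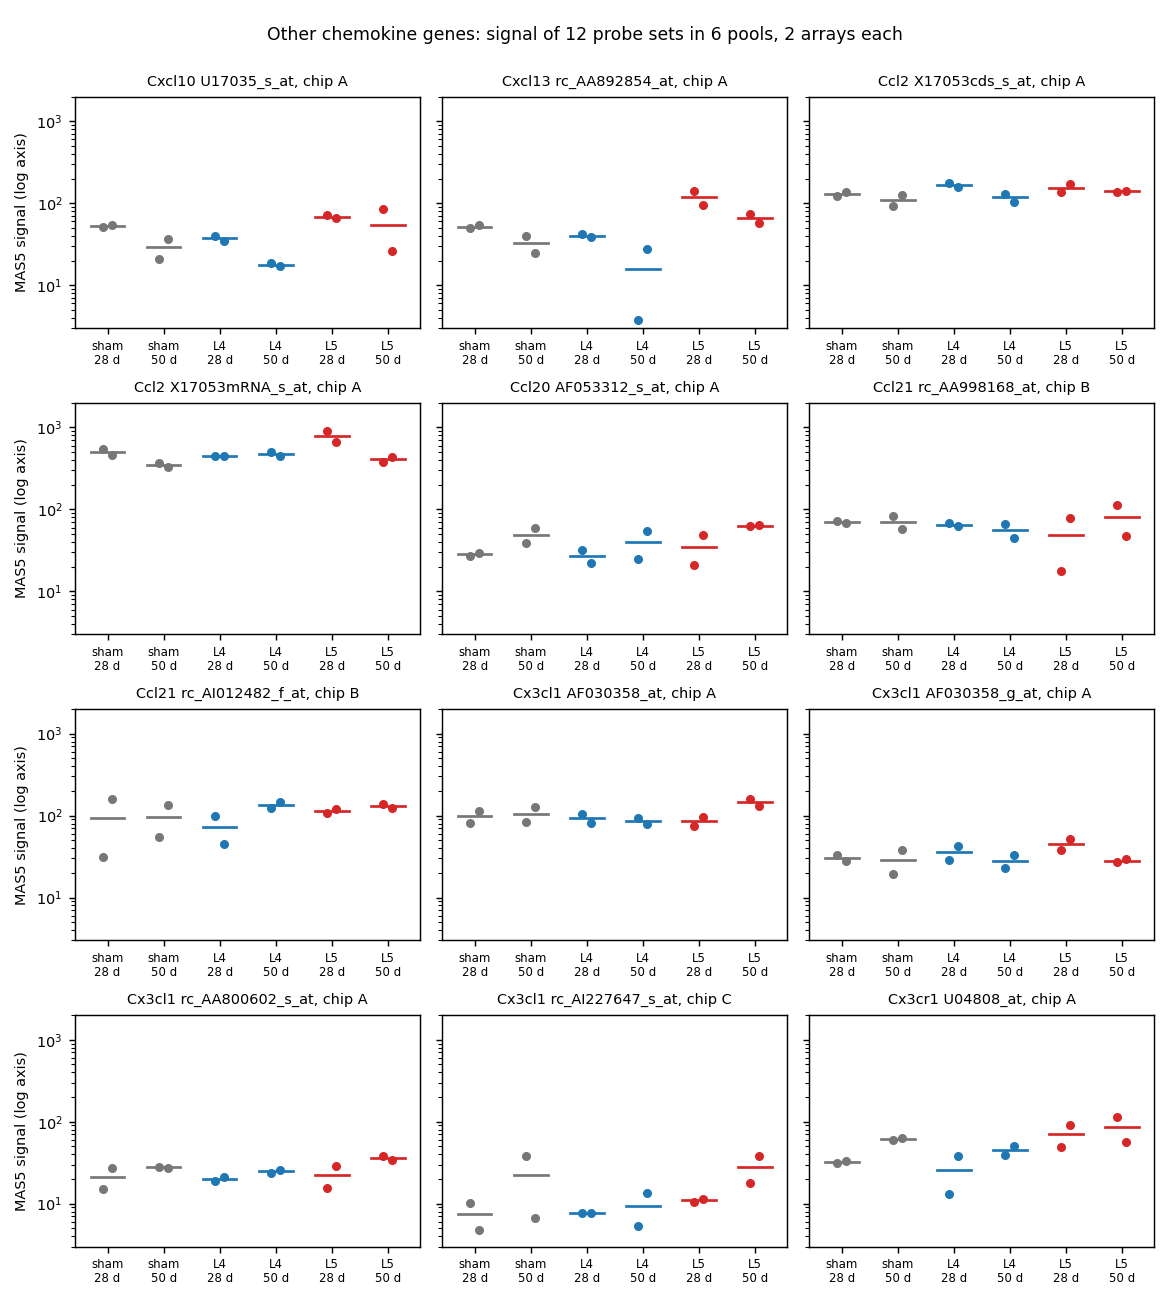
Signal of the other 12 probe sets (MAS5 signal on a log axis) in sham (grey), L4 (blue) and L5 (red) pools at 28 and 50 days; points are the 2 arrays of a pool and bars their mean. Cxcl13 is highest in both L5 pools, Ccl2 X17053mRNA_s_at peaks in L5 at 28 days, fractalkine AF030358_at peaks in L5 at 50 days, and the arrays of the Ccl21 f_at probe set are far apart in the sham pools.

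Counted over all probe sets of the 8 genes, L5 was above sham in 13 of 16 at 28 days and in 15 of 16 at 50 days. The highest pool was an L5 pool for 13 of 16 probe sets, at 28 days for 6 and at 50 days for 7, and a sham pool for 0. Such counts were not made over all probe sets, and Cxcl14 and fractalkine enter them with 4 probe sets each. The median L5 difference from sham over the 16 was 0.37 at 28 days and 0.33 at 50 days. Over the 12 tested ones it was 0.57 and 0.47, beside 0.01 and 0.03 over all 15721 tested probe sets. Of the 12 that passed the filter, 4 passed only through their L5 pools: the mean of the sham and L4 pools was 39.2 for Cxcl14 rc_AA874803_g_at, 34.2 for Cxcl10, 35.0 for Cxcl13 and 36.2 for Ccl20, under the 39.3 of chip A. These 4 could hardly have been tested without reading high in L5, and counts over the 12 are descriptions. In the fit, at an adjusted p of 0.05, 1 of 12 was called in L5 against sham, higher (Cxcl14 rc_AI043862_at), where 0.763% of all tested probe sets were called (0.229% higher and 0.534% lower). In L5 against L4, 1 of 12 was called (Cxcl14 rc_AA874803_g_at), with 1.27% of all. For the days, 1 of 12 was called (the same rc_AA874803_g_at, lower), with 0.286% of all. Nothing is read from these shares, since the genes were picked on these contrasts.

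Scaling bears on these directions. When arrays were instead scaled on the hybridisation controls, the median of all probe sets shifted to -0.44 in L5 against sham, and 6 of 12 lay above 0. Relative to the median of all probe sets, 11 of 12 stayed above it under each of the 4 scalings, Ccl21 rc_AA998168_at being the exception throughout. Some margins were small: fractalkine AF030358_at lay 0.02 above it under quantile normalization and under median centring, and Ccl20 0.03 under quantile normalization. The genes were chosen with this contrast in view, so the count is a description. The signs that turned under that scaling were those of fractalkine AF030358_at (-0.32), Ccl2 X17053cds_s_at (-0.19), Ccl2 X17053mRNA_s_at (-0.07), Ccl20 (-0.16) and Ccl21 rc_AI012482_f_at (-0.01), and fractalkine also turned under median centring (-0.08). The 3 tested Cxcl14 probe sets, Cxcl10, Cxcl13 and Cx3cr1 stayed above 0 under all 4.

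At each day alone there was 1 pool per condition and no test. A rise of at least 1 on the log2 scale with both L5 arrays above both sham arrays was met at 28 days by 3 of the 12 (Cxcl14 rc_AA874803_g_at and rc_AI043862_at, and Cxcl13), where 2.79% of all tested probe sets met it. At 50 days it was met by 3 (all of Cxcl14's tested probe sets), with 3.29% of all. A fall of at least 1 from 28 to 50 days with arrays apart was seen in sham for 1 (Cxcl14 rc_AA874803_g_at, 1.36% of all), in L4 for 2 (that probe set and Cxcl13, 0.795%) and in L5 for 1 (that probe set, 4.94%).

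**Figure D3:**
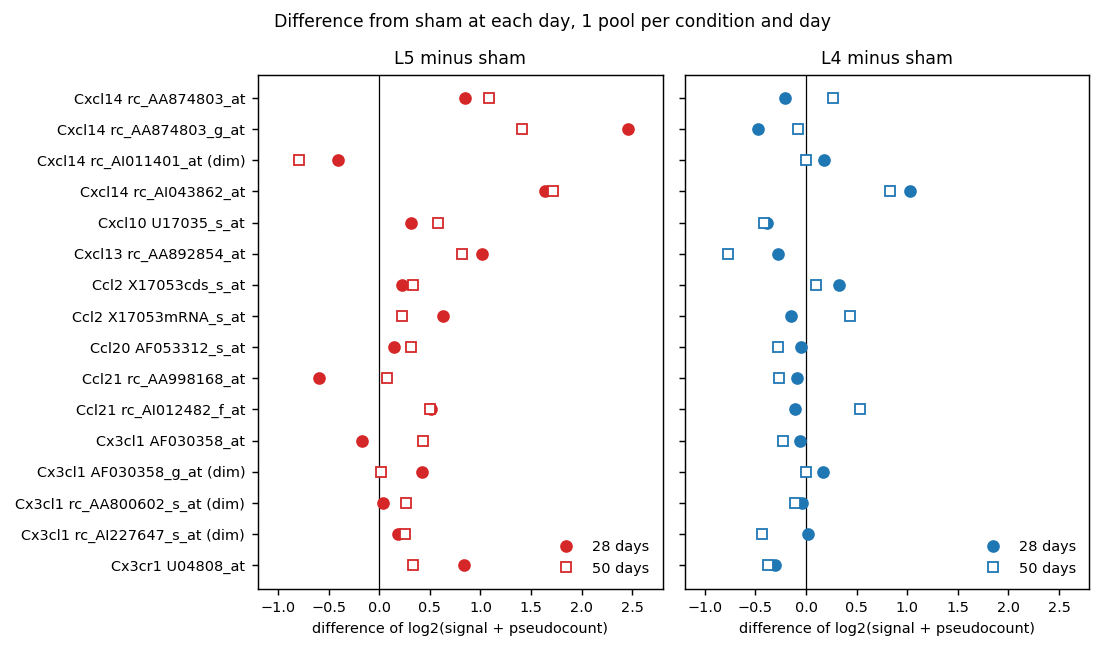
Difference from the sham pool of the same day, in log2(signal + pseudocount), for each of the 16 probe sets, with L5 on the left and L4 on the right; filled circles are 28 days and open squares 50 days, 1 pool each. Most L5 points lie right of 0, Cxcl14 rc_AA874803_g_at lies at 2.45 and 1.41, and in L4 Cxcl14 rc_AI043862_at lies farthest right.

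In the L4 ganglion none of the 12 probe sets passed against sham (0 of 15721 in all, 0%). By the unadjusted limma p below 0.05, 1 of the 12 and 427 of all did. L4 was above sham for 5 and below for 7 of the 12, with a median of -0.15. The 2 farthest were Cxcl14 rc_AI043862_at at 0.93 ± 0.23 and Cxcl13 at -0.53 ± 0.38. Both depended on the array: the first arrays alone gave 1.42 and -0.93, and the second arrays alone 0.44 and -0.13.

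For Cxcl14, fractalkine and Cx3cr1, the probe sets most like the brightest tested one, by Pearson r over the 6 pools, were sought among 3404 or 3405 single-gene probe sets with a range of at least 1 on the log2 scale. For Cxcl14 rc_AA874803_g_at they were Zfp36l2 (r = 0.999), Fbn1 (0.996), Rell1 (0.995), Emp1 (0.994) and Ltbp1 (0.990). For fractalkine they were Mlnr (0.983), Mobp (0.982), Ppm1l (0.982), Gkap1 (0.982) and Scn4a (0.977), and for Cx3cr1 Ccnd3 (0.984), Ago1 (0.983), C1h19orf81 (0.968), Muc13 (0.967) and Avp (0.963). With 6 points and so many candidates, r values of this size describe these pools alone.

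Other parts of the chemokine system were followed through gene lists. Of 27 other chemokine ligands, 17 were on the arrays, 8 were tested and 0 were called in any comparison. The largest differences of L5 from sham were those of Cxcl16 at 0.69 ± 0.30, a membrane-bound chemokine like fractalkine, Ccl6 at 0.41 ± 0.34 and Cxcl6 at 0.35 ± 0.33. Ccl6 and Cxcl6 changed sign between days, Ccl6 from 1.12 at 28 days to -0.29 at 50 days and Cxcl6 from -0.27 to 0.97. The smallest were those of Ccl27 at -0.04, Pf4 at 0.05 and Cxcl9 at 0.10. The median of the 8 was 0.24, beside 0.04 over all tested probe sets. Cxcl16 read 59.1 and 37.8 in the sham pools, 62.2 and 66.2 in L4, and 98.6 and 82.6 in L5 (28, then 50 days), so that both L5 pools were the highest.

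Of 22 other chemokine receptors, 12 were on the arrays, 5 were tested and 0 were called. Ccr7, the receptor of Ccl21, had the largest difference, 0.67 ± 0.20 (limma, adjusted p = 0.14), with pool means of 131 and 133 in sham, 116 and 129 in L4, and 214 and 232 in L5. Both L5 pools were the highest. Ackr3, an atypical receptor that scavenges Cxcl12, was at 0.28 and Cxcr4 at 0.13, while Cxcr3, the receptor of Cxcl10, was at -0.25 and Cxcr1 at -0.44. The receptors of Ccl2, Ccl20 and Cxcl13 (Ccr2, Ccr6 and Cxcr5) were on the arrays and too dim for the test.

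Genes upstream and downstream had 0 calls in these lists too. Of 7 proteases that cut chemokines, 3 were tested, and Ctss, which sheds fractalkine and is also on the macrophage list below, was at 1.00 ± 0.35 (1.84 at 28 days and 0.15 at 50 days), with Dpp4 and Mmp2 at 0.50. Of 12 inducers of chemokine transcription, 8 were tested: Irf7 lay at 1.26 ± 0.46, Jun at 0.50, Stat3 at -0.14 and Nfkb1 at -0.24. Jun changed sign between days (1.37 at 28 days, -0.37 at 50 days), as did Nfkb1 (0.17, then -0.66). Interferon-induced genes (7 of 12 tested) were all above 0 in the fit over both days, led by Mx2 at 1.42 ± 0.34 (limma, adjusted p = 0.098) and Irf7, with Oas1a at 0.03 and Psmb9 at 0.23 the lowest and a median of 0.33. Mx2 read 170.1 and 120.3 in sham, 288 and 101 in L4, and 869 and 156 in L5, so the 28 day L5 pool was the highest. Of 13 genes of receptor signalling, 9 were tested, with Rac2 at 0.60 and Arrb2 at 0.48 the highest and Grk2 at -0.84 and Gnai2 at -0.36 the lowest. Without the 50 day L5 pool the difference from sham was 1.86 for Ctss, 1.15 for Mmp2 and 1.35 for Jun. It was 2.02 for Irf7, 1.19 for Mx1 and 2.10 for Mx2. At 50 days alone Mmp2 was at 0.03, Irf7 at 0.34, Mx1 at 0.16 and Mx2 at 0.57. Grk2 went the other way and differed more without the 28 day L5 pool (-1.41).

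**Figure D4:**
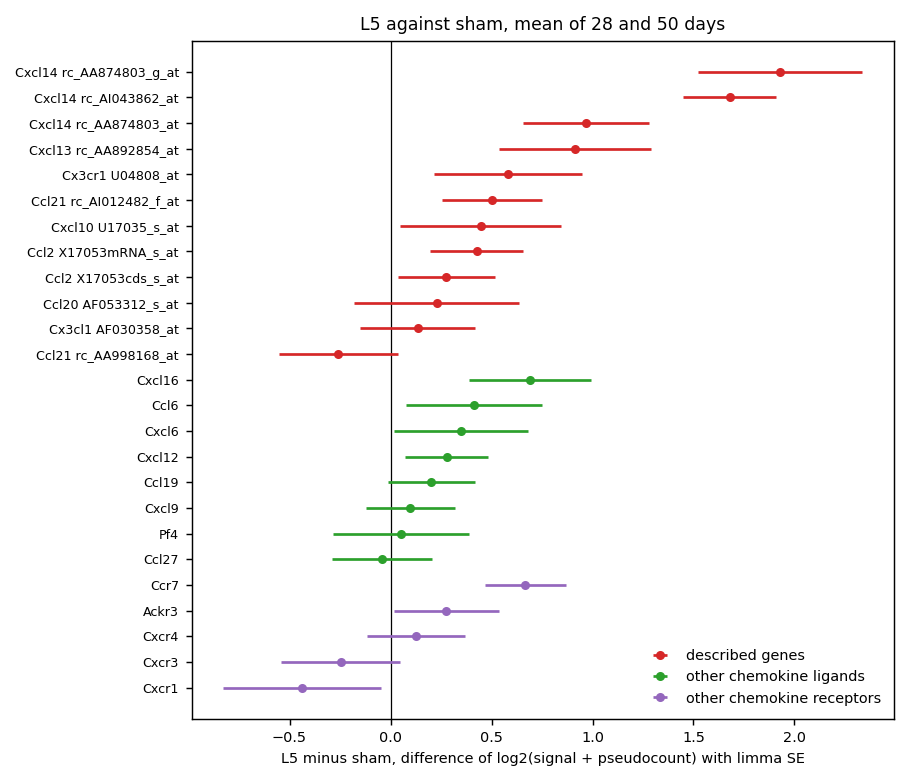
L5 minus sham, in log2(signal + pseudocount), mean of both days with the limma SE as bars, for the 12 tested probe sets of the 8 genes (red), 8 other chemokine ligands (green) and 5 other receptors (purple). The Cxcl14 probe sets are at the top with 1.93, 1.68 and 0.97, and Cxcl16 and Ccr7 lead their groups at 0.69 and 0.67.

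Marker lists of the cells in a ganglion are given because the chemokine genes come from several of them. In bulk RNA, fewer cells of a type and less RNA per cell cannot be told apart. Sensory neuron markers were bright in all pools (14 of 15 on the arrays and tested, the dimmest Isl1 at a mean signal of 264). In L5, 2 of the 14 were called lower, beside 0.534% of all tested probe sets. The sodium channel Scn10a fell by 1.34 (limma, adjusted p = 0.024) and Scn11a fell by 1.38 (adjusted p = 0.015). Of 8 markers of injured neurons, 4 were called higher in L5 (Vip, Npy, Gal and Atf3), beside 0.229% of all tested probe sets. In L4, 0 were called, as over all tested probe sets (0%). In the fit 7 of 8 lay above sham in L5, and Adcyap1 lay below it at both days (-0.60, then -0.37). In L4 the 4 genes called in L5 also lay above the same sham pools, Npy by 0.85, Vip by 0.85, Gal by 0.67 and Atf3 by 0.44. The other markers of injured neurons lay at 0.18 (Reg3b), 0.08 (Gap43), 0.04 (Adcyap1) and -0.13 (Sprr1a) in L4. Npy and Vip were called lower at 50 than at 28 days, where 0.286% of all tested probe sets were called in either direction. Of 6 tested skeletal muscle markers, 1 was called higher in L5 (Tpm2, by 1.16), beside 0.229% of all tested probe sets. Their median was 1.90 at 28 days and 0.18 at 50 days. Satellite glia, Schwann cell and endothelial markers had 0 calls.

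Macrophage markers (11 of 15 tested, 0 called) were above sham in L5 for 10 of 11 genes at 28 days and for 9 of 11 at 50 days, with a median of 1.13 and of 0.15. Their summed signal was 2215 and 1872 in sham, 2081 and 1694 in L4, and 5878 and 2168 in L5 (28, then 50 days), with Itgam the dimmest at 14.4. Of the 12 tested chemokine probe sets, 5 had the larger L5 difference from sham at 28 days and 7 at 50 days. Among the former were Cx3cr1 (0.84, then 0.33), Cxcl13 (1.01, then 0.81) and Ccl2 X17053mRNA_s_at (0.63, then 0.23), and among the latter Ccl2 X17053cds_s_at (0.22, then 0.33), Cxcl10 (0.31, then 0.58), Ccl20 (0.14, then 0.31) and fractalkine AF030358_at (-0.17, then 0.44). T cell markers (4 of 9 tested, 0 called) had a median of 0.10 at 28 days and 1.02 at 50 days, with Cd3d dim at 8.5. Of 5 B cell markers 2 were on the arrays and 0 were tested. The part of these cells in the chemokine values was not tested.

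Fibroblast markers (5 of 5 tested) included 2 that were called lower at 50 than at 28 days, Col3a1 by 1.56 and Lum by 1.35. Over all tested probe sets 0.286% were called between days. The others were also lower at 50 days without a call, Dcn (-0.99), Pdgfra (-0.68) and Col1a1 (-0.66). The list's summed signal was 14001 and 7104 in sham, 9958 and 7454 in L4, and 20865 and 8365 in L5. Cxcl14 rc_AA874803_g_at fell with day in the same 3 conditions, and rc_AI043862_at did not. The part of fibroblasts in the fall of that Cxcl14 probe set was not tested.

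**Figure D5:**
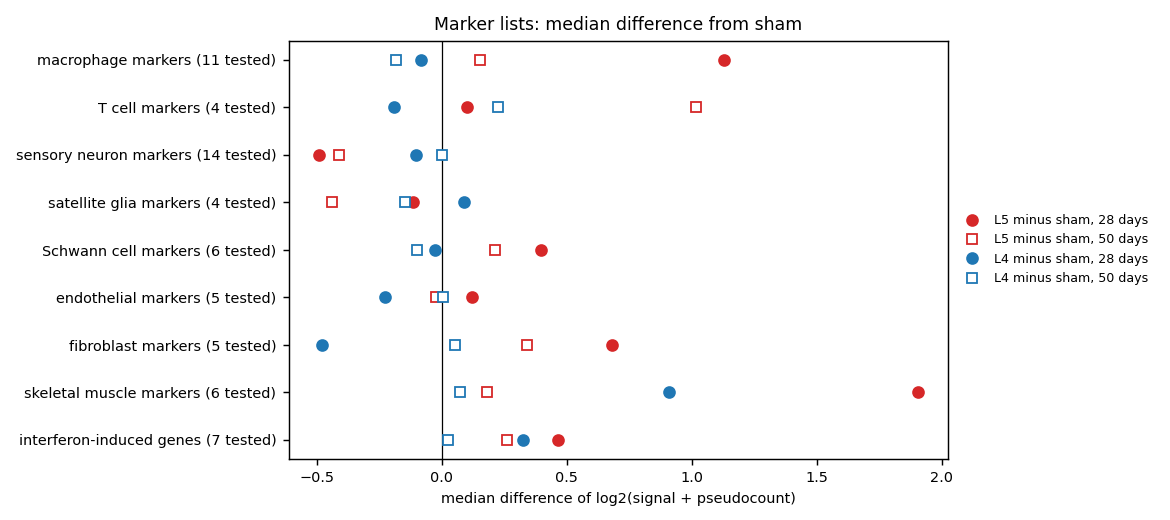
Median difference from sham, in log2(signal + pseudocount), over the tested genes of each marker list, for L5 (red) and L4 (blue) at 28 days (filled circles) and 50 days (open squares), 1 pool each. Macrophage markers lie at 1.13 and 0.15 and skeletal muscle markers at 1.90 and 0.18 in L5 at 28 and 50 days, and T cell markers at 0.10 and 1.02.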

How the data were processed

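The authors deposited linear intensity signals, and the submitters' processing notes name MAS5, with the version not given in the sources used here. Arrays of a chip type had a trimmed mean (2% off each end) of 150.07 to 150.21, and were scaled to the same trimmed mean again. Medians ran from 50.6 to 91.8, and r between both arrays of a pool was 0.880 to 0.958. The number of arrays limits the precision. The pseudocount was the 20th percentile of a chip type, and controls and probe sets with a mean under the 40th percentile were left out, so 15721 of 26379 were tested. The log2 values computed from the deposited intensities were averaged over the 2 arrays of a pool. limma 3.58.1 in R 4.3.3 was fitted per chip type to the 6 pools with condition and day as terms (lmFit, eBayes with an intensity trend). Benjamini-Hochberg adjustment ran over the 3 chip types together. The code was tested on simulated data.

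Probe sets were named by the platform annotation: 7006, 5351 and 5821 on chips A, B and C had 1 gene, 308, 38 and 45 several, and 1485, 3402 and 2923 none. RefSeq tables of GRCr8 gave promoters and current symbols. The genes and lists were chosen with earlier results of these data known. All probe sets of the 8 genes are given. From the lists, called members are named and, by L5 against sham, the 3 largest rises and falls of other ligands and receptors and the 2 largest of each other chemokine system list, each gene by its brightest tested probe set. Alternatives were other scalings, pseudocounts and filters, no trend, single arrays, block fits and leaving out pools.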

Additional observations from a re-analysis of the deposited data

Results flagged for a closer look

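Ccl2 probe set X17053mRNA_s_at moved in opposite directions at the 2 days in 2 comparisons, with both arrays of a pool on the same side each time. The L4 pool differed from sham by -0.14 at 28 days and by 0.43 at 50 days, a change of 0.58 on the log2 scale. L5 against L4 was 0.77 at 28 days and -0.21 at 50 days, a change of -0.98. Both share the L4 pools. Some gaps between arrays were narrow: at 28 days an L4 array read 454.8 against 457.8 in sham. At 50 days an L5 array read 434.9 against 442.6 in L4. How many of all probe sets switch in this way was not counted. The other Ccl2 probe set, X17053cds_s_at, changed the other way between the days. There L4 differed from sham by 0.33 and then 0.10, with no change of sign, and L5 from L4 by -0.11 and then 0.23. Its arrays overlapped between L4 and sham at 50 days and between L5 and L4 at 28 days. With 1 pool per condition and day the differences between days were not tested.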

How the results depend on the processing

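As reported, 1 of the chemokine probe sets was called in L5 against sham, 1 in L5 against L4, 1 between the days and 0 in L4 against sham, and 0 other chemokine system genes in L5 against sham. The member counts in the L5 comparisons and the Cxcl14 call between days are descriptions, since the genes were chosen with those differences in view. Cxcl14 rc_AA874803_g_at also passed the filter only through its L5 pools. L4 against sham kept 0 under every alternative. In L5 against sham the count was 2 with median centring and with hybridisation control scaling (Cxcl14 rc_AA874803_g_at beside rc_AI043862_at), and 0 with no filter, with a filter at the 60th percentile (which drops rc_AI043862_at), with no intensity trend and with only array 1 or only array 2. In L5 against L4 it was 0 with quantile normalization, no filter, the 60th percentile filter, no trend, and either single array. Between days it was 0 with no trend and with either single array. Chemokine system genes called were 3 with hybridisation control scaling (Stat3, Gnai2 and Grk2, all lower).

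With the array number as a replicate block and the pool as a random block, 3 chemokine probe sets were called in L5 against sham, 3 in L5 against L4 and 4 system genes, the same counts as with the pool as a random block alone. The array numbers do not pair the arrays (r of deviations from -0.102 to 0.108). Leaving out 1 pool gave 0 to 2 in L5 against sham, 0 to 1 in L5 against L4, 1 to 2 between days, 0 in L4 against sham and 0 to 6 system genes. The 0 in L5 against sham came without the 28 day sham pool, and those in L5 against L4 without either 28 day pool of these ganglia. Without the 50 day sham pool the 1 call was rc_AA874803_g_at.

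Over all probe sets L5 against sham had 36 higher and 84 lower calls, 17 and 26 with quantile normalization, 48 and 473 with median centring and 34 and 2906 with hybridisation control scaling. The total of 120 was 31 with no filter, 3 with no trend, 0 and 2 from single arrays, 1114 and 977 with the blocks, and 12 to 621 without 1 pool. Signals near or under the pseudocount limit the folds of dim probe sets. The cause of these changes was not tested.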
